A study of Bos taurus with 12 samples.

Results

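The genes described here are 10 enzymes and partners that write, copy or remove methyl groups on DNA and on histone H3 lysine 27. They are DNMT1, UHRF1, DNMT3A, DNMT3B, TET1, TET2, TET3, EZH2, EZH1 and SUZ12, chosen by name and found by that name as 10 of the 18436 genes in the deposited gene table. The same names selected 32 of 19739 m6A peaks in the list for myoblasts and 32 of 20790 in the list for myotubes. Primary myoblasts came from the longissimus dorsi muscle of newborn Qinchuan cattle and were unmodified. Those kept in growth medium with fetal bovine serum are called GM, and those moved to differentiation medium with horse serum for 4 days are called DM (myotubes). By the series' description GM cells were at 80% confluence and DM cells at 100%, so medium, time and cell density cannot be told apart in any comparison here. Each group had 3 replicates, each with an input RNA-seq library and a library immunoprecipitated with an m6A antibody (IP), 12 libraries in all. The study's methods speak of a newborn animal, so the replicates may be cultures from the same animal, and p-values here measure only the spread between these samples.

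DNA methylation is laid down on unmethylated CpG sites by DNMT3A and DNMT3B, and DNMT1 copies it to the new strand after replication, guided by UHRF1, which binds hemimethylated DNA. The TET dioxygenases oxidise 5-methylcytosine, which leads to its loss. EZH2 and EZH1 are alternative catalytic subunits of Polycomb repressive complex 2 (PRC2), which methylates H3 lysine 27, and SUZ12 is the scaffold of that complex. In muscle precursors EZH2 is known to hold muscle genes silent before differentiation, and the proteins of DNA methylation maintenance are known to be abundant in dividing cells.

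Expression is given in FPKM (fragments scaled to transcript length and to the mapped total of the library), computed by the authors. FPKM summed to 415740 to 434458 per GM input library and to 386436 to 390827 per DM library; the files give no read totals, so the depth behind a value is unknown. Myotube markers separated the groups, with 9 of 12 higher in DM, 1 lower (ACTA1) and 2 not called. MYH3, an embryonic myosin heavy chain, had a mean of 273 FPKM in GM and 659 in DM, so the libraries labelled as myoblasts also held muscle transcripts. Of 27 tested S phase genes 25 were lower in DM, and their summed level went from 233 to 252 FPKM per library in GM to 127 to 130 in DM. Of 10 fibroblast markers 5 were higher in DM, 1 was lower and 4 were not called. Beside these marker and S phase counts, 16.1% of all tested genes were called higher in DM and 26.7% lower. Fibroblast markers summed to 16096 to 16248 FPKM in GM and 16997 to 18106 in DM. Most of that sum came from COL1A1, COL1A2 and COL3A1, with GM means of 6791, 5757 and 2397 FPKM. Summed adipocyte, endothelial and immune markers did not exceed 3.95, 0.874 and 2.06 FPKM in any library. The part of these shifts in the results below was not tested, and in bulk RNA fewer cells of a type and less RNA per cell cannot be told apart.

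To ask which of the 10 genes differ in mRNA between myoblasts and myotubes, the 6 input libraries were compared. In DM, UHRF1, EZH2, TET1 and DNMT1 fell and EZH1 rose, while TET2, TET3, DNMT3A and SUZ12 did not pass the test. UHRF1, TET1 and EZH2 went to 0.339, 0.473 and 0.480 of their mean GM level in FPKM, DNMT1 to 0.641 and EZH1 to 1.32. DNMT3B lay under the filter of a mean of 0.5 FPKM and was not tested. Genes were tested with limma on log2(FPKM + 1) and called at a Benjamini-Hochberg adjusted p under 0.05 over all 12302 tested genes. Of the 9 tested members 4 were called lower (26.7% of all tested genes were) and 1 higher (16.1%), 5 in either direction (42.8%). The members' median log2 fold change was −0.30 against −0.05 for all tested genes. Rescaling the libraries moved this background: of all calls 37.6% were higher in DM on FPKM, 49.2% with size factors and 59.5% on TPM, where the median of all genes was 0.06, and the same 4 lower and 1 higher member calls stood under both scalings.

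**Figure D1:**
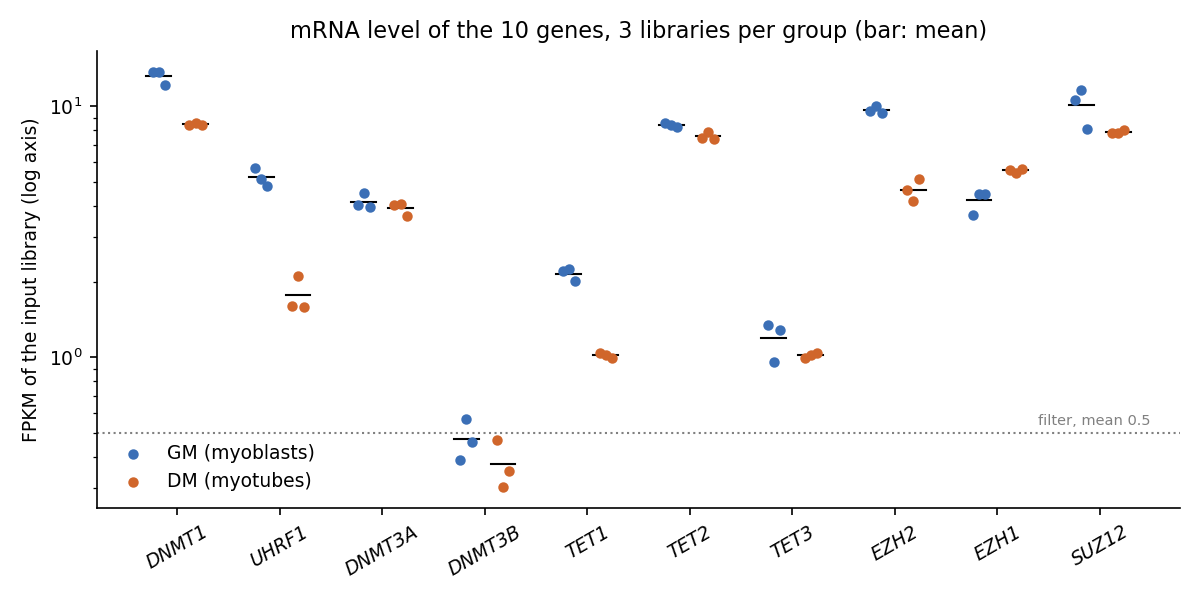
FPKM of the 10 genes (log axis) in the 3 GM input libraries (blue) and 3 DM input libraries (orange); the bar is the mean and the dotted line the filter at 0.5 FPKM. DM points lie below all GM points for DNMT1, UHRF1, TET1, TET2, EZH2 and SUZ12 and above them for EZH1.

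Among the enzymes that keep methylation through replication, DNMT1 (chromosome 7, 14686995 to 14730720, minus strand, ARS-UCD1.2) had the highest level of the 10 genes in both groups. Its FPKM was 13.7, 13.7 and 12.1 in GM and 8.42, 8.54 and 8.41 in DM. The groups did not overlap, and the DM libraries varied less than the GM libraries (13.2 ± 0.918 and 8.46 ± 0.0750, mean ± SD, n = 3 each). DNMT1 fell by 0.58 on the log2(FPKM + 1) scale (standard error 0.06, limma Benjamini-Hochberg adjusted p = 0.000165), and 7.15% of tested genes had a lower log2 fold change.

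UHRF1 lies on the same chromosome (7, 19223877 to 19257053, minus strand). FPKM of UHRF1 was 5.68, 5.12 and 4.80 in GM and 1.60, 2.10 and 1.58 in DM, and every DM library was under every GM library. It had the largest fall of the members, 1.17 on the log2 scale (log2 fold change −1.17, standard error 0.10, limma Benjamini-Hochberg adjusted p = 3.55e-05), and only 1.61% of tested genes had a lower log2 fold change.

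For the enzymes that set new methylation the groups overlapped. DNMT3A (chromosome 11, 73971560 to 74074893, plus strand) had 4.02, 4.49 and 3.98 FPKM in GM and 4.02, 4.06 and 3.65 in DM. Its log2 fold change was −0.07 with a 95% interval of −0.23 to 0.09 (limma Benjamini-Hochberg adjusted p = 0.453), and it turned to 0.03 on TPM. DNMT3B (chromosome 13, 62142537 to 62176363, plus strand) had 0.390, 0.565 and 0.460 FPKM in GM and 0.467, 0.303 and 0.352 in DM. In a fit without the filter its log2 fold change was −0.10 (95% interval −0.25 to 0.06, limma Benjamini-Hochberg adjusted p = 0.329), so no difference was detectable at so low a level. Summed over DNMT1, DNMT3A and DNMT3B, a quantity chosen after the values were seen, FPKM went from 17.8 ± 1.14 in GM to 12.7 ± 0.287 in DM, and DNMT1 made up 74.0% of the GM mean and 66.4% of the DM mean.

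Of the 3 TET enzymes TET1 alone passed the test. TET1 (chromosome 28, 24918286 to 25035716, plus strand) had 2.20, 2.24 and 2.01 FPKM in GM and 1.04, 1.02 and 0.990 in DM. The groups did not overlap. The gene fell by 0.64 on the log2(FPKM + 1) scale (standard error 0.07, limma Benjamini-Hochberg adjusted p = 0.000190), a scale that understates the change of genes at such low levels, and with a pseudocount of 0.1 the fall was 1.01.

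TET2 (chromosome 6, 19898416 to 19995309, minus strand) was the most abundant TET transcript, with 8.60, 8.44 and 8.29 FPKM in GM and 7.44, 7.92 and 7.40 in DM. All DM values were under all GM values, but the gap was small, and the log2 fold change of −0.14 (95% interval −0.27 to −0.01) did not pass after adjustment over all genes (limma Benjamini-Hochberg adjusted p = 0.0794). TET3 (chromosome 11, 10561669 to 10666478, minus strand) had 1.34, 0.952 and 1.28 FPKM in GM and 0.989, 1.02 and 1.04 in DM. The second GM library lay under all DM libraries, so the groups overlapped, and the log2 fold change was −0.12 (95% interval −0.33 to 0.09, limma Benjamini-Hochberg adjusted p = 0.333). Summed FPKM of the TET genes, also not a planned quantity, was 11.8 ± 0.307 in GM and 9.61 ± 0.297 in DM. The share of TET1 in it was 18.2% in GM and 10.6% in DM.

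Within PRC2 the catalytic subunits moved in opposite directions. EZH2 (chromosome 4, 112024328 to 112069782, minus strand) had 9.59, 10.03 and 9.42 FPKM in GM and 4.63, 4.20 and 5.11 in DM. The groups were far apart against their spread, and EZH2 fell by 0.92 on the log2 scale (log2 fold change −0.92, standard error 0.07, limma Benjamini-Hochberg adjusted p = 2.97e-05). EZH1 (chromosome 19, 42754606 to 42786890, minus strand), the paralogue known from non-dividing cells, had 3.69, 4.46 and 4.48 FPKM in GM and 5.59, 5.43 and 5.63 in DM. Every DM value was above every GM value, and EZH1 rose by 0.33 on the log2 scale (standard error 0.08, limma Benjamini-Hochberg adjusted p = 0.00881). EZH1 was the only member called higher, and 89.5% of tested genes had a lower log2 fold change.

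The scaffold SUZ12 (chromosome 19, 18156522 to 18196012, minus strand) had 10.6, 11.6 and 8.08 FPKM in GM and 7.78, 7.81 and 8.06 in DM. GM replicate 3 lay just above the highest DM library and apart from the other GM libraries. With all libraries the log2 fold change of SUZ12 was −0.30 (95% interval −0.56 to −0.05, limma Benjamini-Hochberg adjusted p = 0.0583), and without GM replicate 3 it was −0.44 (adjusted p = 0.00105). SUZ12 was thus not called with all libraries, and whether it was called rested on a single library.

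In counts of separation, the 3 DM libraries lay below the 3 GM libraries in 6 of the 9 tested members (33.0% of all tested genes) and above them in 1 (21.1%). Under thresholds like those of the study, an unadjusted limma p under 0.05 with a fold change over 1.5, UHRF1, TET1 and EZH2 were lower (6.97% of tested genes, or 6.88% with an adjusted p) and 0 members were higher (4.90%). The 0 includes EZH1, whose change was smaller than 1.5-fold although limma gave it an unadjusted p of 0.00246 and an adjusted p under 0.05. DNMT1 had a log2 fold change of −0.584, just short of that fold on the log2(FPKM + 1) scale, which the added 1 compresses. It passed with a pseudocount of 0.5 (−0.610) or 0.1 (−0.633), and without GM replicate 3 or DM replicate 2, which made 4 members lower.

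**Figure D2:**
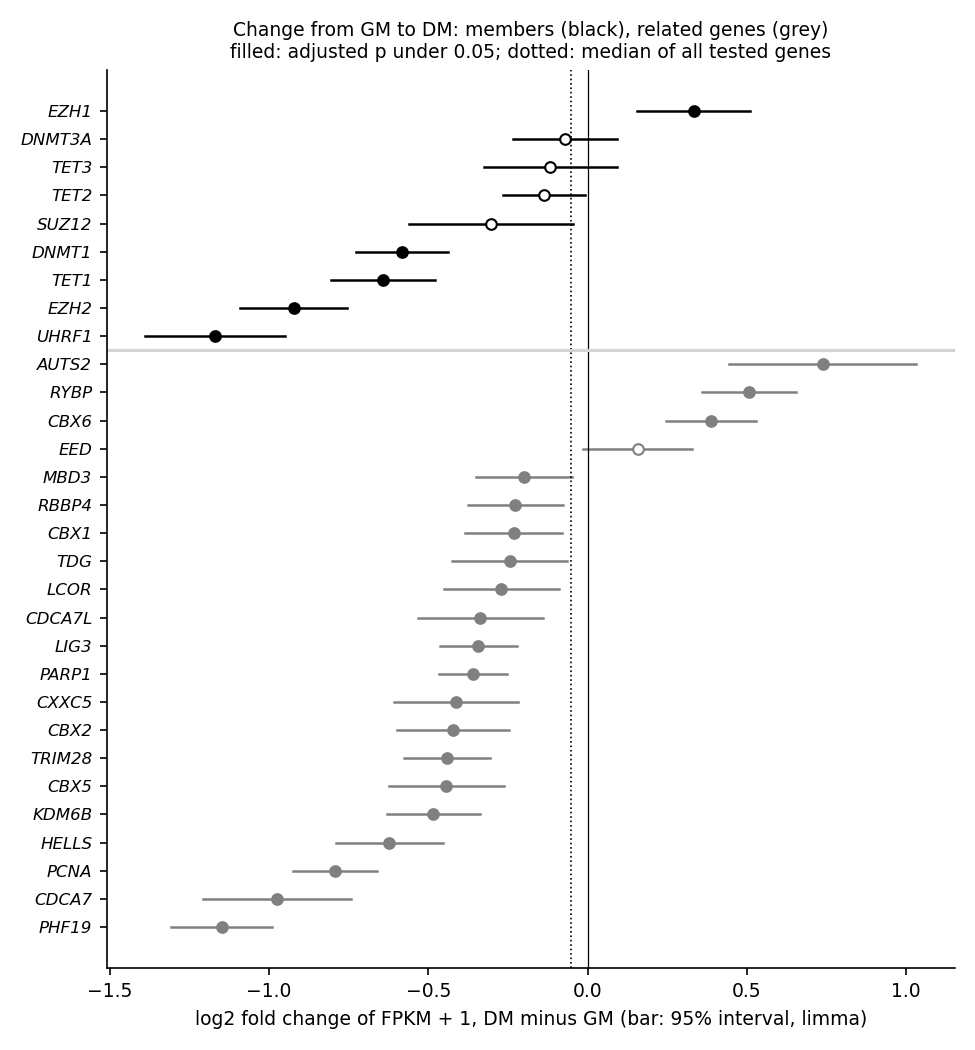
Log2 fold change of FPKM + 1 from GM to DM with its 95% interval from limma, for the 9 tested members (black) and named genes of the same pathways (grey). Filled points have an adjusted p under 0.05; the dotted line is the median of all tested genes, −0.05, and UHRF1 and EZH1 mark the ends of the members' range at −1.17 and 0.33.

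The order of the 10 genes by mean FPKM was DNMT1, SUZ12, EZH2, TET2, UHRF1, EZH1, DNMT3A, TET1, TET3 and DNMT3B in GM. In this order the libraries of neighbours overlapped for SUZ12 and EZH2 and for EZH1 and DNMT3A. In DM the order was DNMT1, SUZ12, TET2, EZH1, EZH2, DNMT3A, UHRF1, TET1, TET3 and DNMT3B, and SUZ12 overlapped TET2, as TET1 did TET3. TET1 and TET3 differed in GM (2.15 and 1.19 FPKM) and had means of 1.02 and 1.01 FPKM in DM. EZH2 stood above EZH1 in each GM library and below it in each DM library.

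Ratios of FPKM within a library do not depend on how libraries were scaled. EZH1 over EZH2 was 0.384, 0.445 and 0.476 in GM and 1.21, 1.29 and 1.10 in DM. The ratio crossed 1 between the groups, 2.77-fold higher in DM, with no overlap (two-sided exact permutation p = 0.1, the smallest that 3 against 3 libraries allow; Benjamini-Hochberg adjusted 0.167 over 5 ratios). The sum of EZH1 and EZH2, which was not a planned quantity, was 13.9 ± 0.606 FPKM in GM and 10.2 ± 0.558 in DM. EZH1 made up 30.3% of the GM mean and 54.4% of the DM mean.

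TET1 over TET2 was 0.255, 0.265 and 0.243 in GM and 0.140, 0.128 and 0.134 in DM, 0.527-fold in DM (exact permutation p = 0.1, adjusted 0.167). DNMT1 over DNMT3A was 3.41, 3.06 and 3.05 in GM and 2.09, 2.11 and 2.30 in DM, 0.683-fold in DM (exact permutation p = 0.1, adjusted 0.167). In both ratios all DM libraries lay below all GM libraries. TET3 over TET2 averaged 0.141 ± 0.0246 in GM and 0.134 ± 0.00573 in DM, and the groups overlapped (exact permutation p = 0.8). DNMT3A over DNMT3B averaged 8.97 ± 1.21 and 10.8 ± 2.41, also with overlap (exact permutation p = 0.3), and its denominator was under 1 FPKM in every library.

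**Figure D3:**
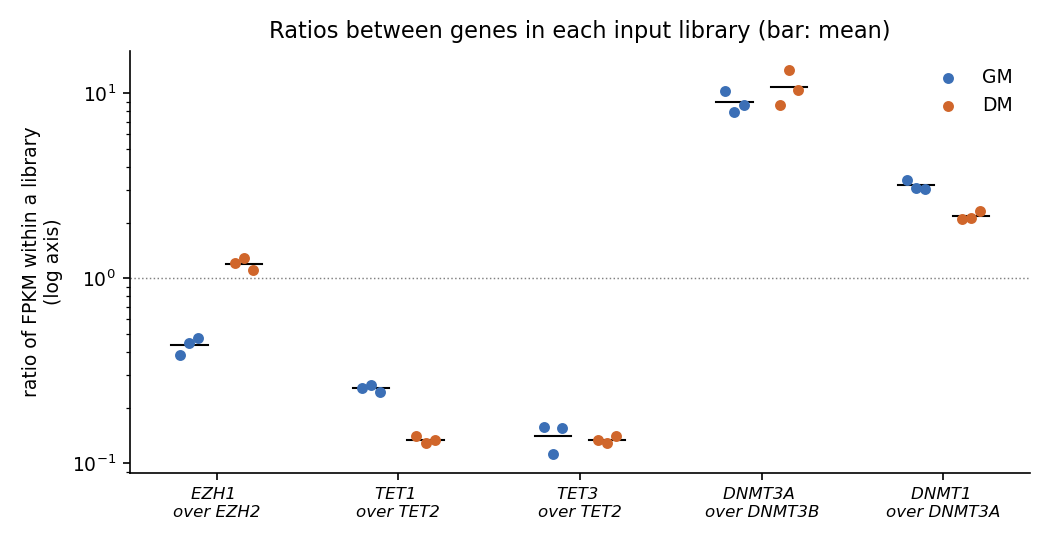
Ratio of FPKM between 2 genes within each input library (log axis), with GM in blue, DM in orange and the mean as a bar. EZH1 over EZH2 lies below 1 in the 3 GM libraries and above 1 in the 3 DM libraries.

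The genes nearest in pattern to the members with the largest changes were found by the Euclidean distance between centred log2(FPKM + 1) values over the 6 input libraries. For UHRF1 they were HMGB2 (distance 0.138), AQP11 (0.149) and PDLIM1 (0.163). For EZH2 they were IL18R1 (0.0648), PSPH (0.0869) and DSC3 (0.105), and for TET1 EHBP1 (0.0569), ARL3 (0.0584) and HNRNPD (0.0587). The distances show likeness over 6 libraries in 2 groups and nothing more.

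Other genes of the same pathways were read from lists. In the list of DNA methyltransferases and partners 6 of 11 tested genes fell, 0 rose and 5 were not called (0 rose also on size factors; 1 was called higher on TPM), with a median log2 fold change of −0.34. The share lower was 54.5%, against 26.7% of all tested genes. Besides DNMT1 and UHRF1 these were CDCA7 and HELLS, which form a nucleosome remodeller needed for DNA methylation, the CDCA7 relative CDCA7L, and the replication clamp PCNA. CDCA7 went from 4.02 ± 0.0629 to 1.57 ± 0.358 FPKM (log2 change −0.97, limma Benjamini-Hochberg adjusted p = 0.000131). HELLS went from 10.5 ± 0.987 to 6.44 ± 0.0931 FPKM (−0.62, limma Benjamini-Hochberg adjusted p = 0.000269) and PCNA from 16.4 ± 0.553 to 9.03 ± 0.403 (−0.79, adjusted p = 1.75e-05). CDCA7L (−0.34, limma Benjamini-Hochberg adjusted p = 0.0133) lost its call on TPM. UHRF2, the paralogue of UHRF1, had 12.8 ± 0.754 FPKM in GM and 13.9 ± 0.664 in DM (log2 change 0.11, limma Benjamini-Hochberg adjusted p = 0.211) and was named after its value was seen.

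In the list of TET enzymes and base excision repair, which replaces the oxidised base, 5 of 16 tested genes fell, 0 rose and 11 were not called (1 was called higher with size factors, 1 on TPM and 1 without DM replicate 2). The share lower, 31.2%, was near the 26.7% of all tested genes. With TET1 these were PARP1, a DNA break sensor (log2 change −0.36, limma Benjamini-Hochberg adjusted p = 0.000475), the ligase LIG3 (−0.34, 0.00114), the CXXC-domain protein CXXC5 (−0.41, 0.00503) and TDG, the glycosylase that removes oxidised methylcytosine (−0.24, 0.0354). The call of TDG stood in 5 of 14 alternatives.

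Of the 5 tested PRC2 core subunits EZH2 and RBBP4 fell (40.0%, against 26.7% of all tested genes) and EZH1 rose (20.0%, against 16.1%). SUZ12 and EED were not called. RBBP4, a histone-binding subunit shared with other complexes, went from 94.6 ± 3.58 to 80.8 ± 6.08 FPKM (log2 change −0.23, limma Benjamini-Hochberg adjusted p = 0.0223), a call that stood in 7 of 14 alternatives and was lost on TPM, with size factors and with a replicate block. EED, which binds the methylated histone tail, had 11.5 ± 0.882 FPKM in GM and 12.9 ± 0.932 in DM (log2 change 0.16, limma Benjamini-Hochberg adjusted p = 0.127), and was called higher on TPM (0.29, adjusted p = 0.0290) and with size factors (0.22, adjusted p = 0.0363). RBBP7 was not analysed here.

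Among 6 tested PRC2 accessory subunits 2 fell (33.3%, near the 26.7% of all tested genes), 0 rose and 4 were not called. PHF19, a Polycomb-like protein that helps PRC2 bind chromatin, went from 5.57, 5.72 and 6.02 FPKM in GM to 1.88, 2.18 and 2.10 in DM (log2 change −1.15, limma Benjamini-Hochberg adjusted p = 6.42e-06), a fall close in size to that of UHRF1. LCOR (−0.27, limma Benjamini-Hochberg adjusted p = 0.0242) kept its call in 8 of 14 alternatives. FPKM were given per gene and do not separate the products of LCOR, so a fall of a PRC2 subunit made from it was not tested. KDM6B, a demethylase that removes the mark set by EZH2 and EZH1, went from 5.89 ± 0.317 to 3.92 ± 0.134 FPKM (log2 change −0.48, limma Benjamini-Hochberg adjusted p = 0.000504), and KDM6A was not analysed here.

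The list of Polycomb repressive complex 1 held 21 tested subunits. Of these 3 fell (14.3%, against 26.7% of all tested genes), 5 rose (23.8%, against 16.1%) and 13 were not called. AUTS2 (log2 change 0.74, limma Benjamini-Hochberg adjusted p = 0.00211), RYBP (0.51, 0.000409) and CBX6 (0.39, 0.00140) rose, and CBX2, a subunit that compacts chromatin, fell (−0.42, 0.00273). On TPM 9 subunits were called higher and 1 lower, and with size factors 7 were higher and 1 lower. Without GM replicate 3 the count of higher subunits was 8. The count of lower subunits was 2 with a replicate block and with any 1 library left out.

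**Figure D4:**
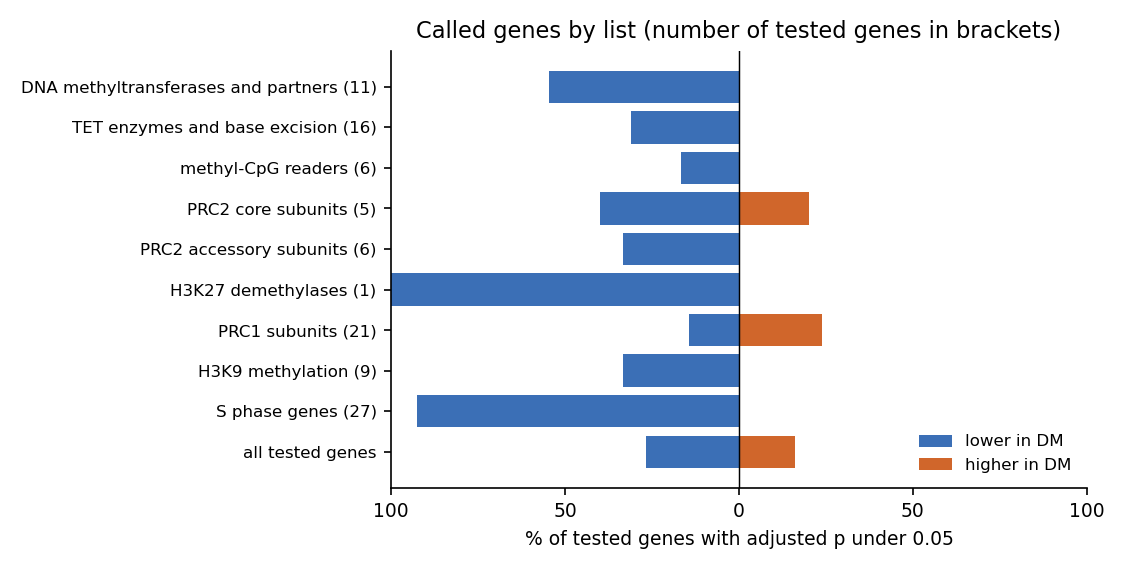
Percent of tested genes called lower (blue, to the left) and higher (orange, to the right) in DM at a limma adjusted p under 0.05, by list, with the number of tested genes in brackets and all 12302 tested genes in the bottom row. S phase genes were 92.6% lower, DNA methyltransferases and partners 54.5%, and all tested genes 26.7%.

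m6A marks on the transcripts were read from 1 peak list per group, made by the authors on pooled libraries, so the values below carry no replicate error and no test. Fold enrichment is the authors' ratio of IP over input in a peak. Of the 10 members 9 had a peak in the GM list (70.9% of tested genes did) and 9 in the DM list (78.7%). DNMT3B had 0 peaks in either list, and of genes under 0.5 FPKM 29.1% had a peak in GM and 32.4% in DM. The number of peaks per gene ran from 1 in DNMT1 and SUZ12 to 8 in TET1 in GM, and from 2 to 7 in DM, again highest in TET1. Member peaks had a median fold enrichment of 2.75 in GM (range 1.59 to 5.84) and 3.22 in DM (1.48 to 10.6), against 3.27 and 3.38 for all peaks of the lists. By the authors' annotation 10 GM peaks of the members lay in a 3′ UTR (42.6% of the list did), 3 in a 5′ UTR (16.1%) and 19 in other exons (41.3%). In DM the counts were 12 (45.3%), 4 (18.2%) and 16 (36.5%).

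Peaks of either list whose exon blocks shared 1 base or more in the same orientation were joined, which gave 32 regions. Of these 13 held exactly 1 peak from each list (45.8% of all 22346 regions made from both lists did), 4 a peak in GM alone (13.0%), 6 a peak in DM alone (26.7%) and 9 several peaks (14.5%). In each list 2 member peaks had a false discovery rate of 0.05 or more. All of these were TET3 peaks in regions of 1 list alone. In the 13 pairs fold enrichment was over 1.5 times higher in DM in 1 (14.2% of all 10239 such pairs) and over 1.5 times lower in 0 (10.8%). It was higher by any amount in 10 of 13 (56.5%), with a median log2 ratio of 0.34 against 0.07 for all pairs.

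**Figure D5:**
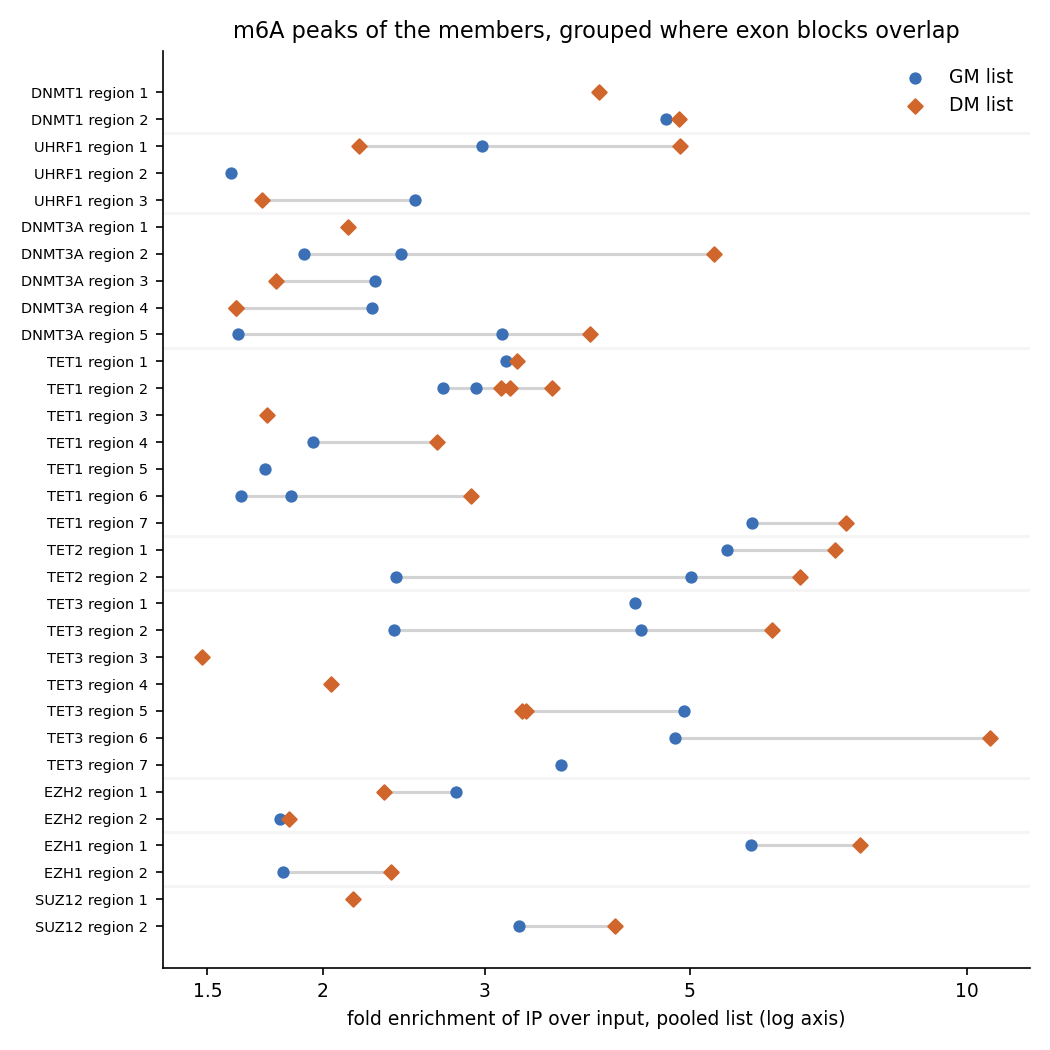
Fold enrichment of IP over input (log axis) of the members' m6A peaks in the pooled GM list (circles) and DM list (diamonds), in 32 regions of overlapping exon blocks numbered by position on the chromosome. Among regions with exactly 1 peak from each list, the TET3 region at 4.82 in GM and 10.6 in DM is the pair that differed by over 1.5 times. Regions with several peaks, among them DNMT3A region 2, are not pairs and were not counted.

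The pair over 1.5 times higher was in the 5′ UTR of TET3 (chromosome 11, 10613844 to 10665390). Its fold enrichment was 4.82 in GM and 10.6 in DM (ratio 2.20), the highest of the members' peaks in the DM list. In GM the peak covered 450 exon bases, in DM 959, so the ratio compares stretches of unlike length. In the last exon of TET3, 2 GM peaks of 4.43 and 2.39 stood beside a DM peak of 6.15. The same exon held a GM peak of 4.36 and a DM peak of 1.48, each without a partner (false discovery rates 0.195 and 0.0661). In exon 3 a GM peak of 4.93 stood beside DM peaks of 3.29 and 3.32.

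TET1 carried its strongest peak in its last exons, up to the annotated 3′ end of the transcript (chromosome 28, 25028222 to 25035716). Fold enrichment there was 5.84 in GM, the highest of the members' peaks in that list, and 7.40 in DM (ratio 1.27), while TET1 mRNA fell. In exon 1 a pair had 3.16 and 3.25, and in exon 3 a pair had 1.95 and 2.66 with 181 and 630 exon bases. A DM peak in the first part of TET1 was assigned to RF00340, an RNA gene inside TET1 with a mean under 0.05 FPKM in both groups.

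TET2 had long peaks at both ends. In its 3′ UTR region (chromosome 6, 19898805 to 19919003) fold enrichment was 5.49 over 2213 exon bases in GM and 7.19 over 2542 in DM (ratio 1.31). At the other end GM peaks of 5.02 and 2.40 stood beside a DM peak of 6.59 that covered 3498 exon bases.

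DNMT1 carried its main peak in the 5′ part of the gene (chromosome 7, 14704624 to 14721704), in 13 exon blocks in GM and 14 in DM. Fold enrichment was 4.71 in GM and 4.87 in DM (ratio 1.03), so the lists gave nearly the same value for a transcript that fell. A peak of 3.99 in the 3′ UTR of DNMT1, 240 bases at the end of the gene, was in the DM list alone. UHRF1 had a pair in exons toward its 3′ end with 2.52 in GM and 1.72 in DM (ratio 0.683), over 511 and 211 exon bases. In its 3′ UTR a GM peak of 2.98 stood beside DM peaks of 4.88 and 2.19.

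DNMT3A had 6 peaks in each list. Toward its 5′ end (chromosome 11, 73997077 to 74055088) GM peaks of 1.91 and 2.43 stood beside a DM peak of 5.32, over 901 and 1469 exon bases. In the 3′ UTR a pair had 2.28 in GM and 1.78 in DM (ratio 0.781), and near the 3′ end GM peaks of 1.62 and 3.13 stood beside a DM peak of 3.90. Its mRNA, by contrast with that of DNMT1, did not pass the test.

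Among EZH1, EZH2 and SUZ12 the highest fold enrichment in both lists was at the 3′ end of EZH1. EZH1 had a 3′ UTR peak at the end of the transcript (chromosome 19, 42754606 to 42755115) of 5.83 in GM and 7.65 in DM (ratio 1.31), and a weaker pair of 1.81 and 2.37. EZH2 had a 3′ UTR pair of 2.79 in GM and 2.33 in DM (ratio 0.835, chromosome 4, 112024387 to 112025788) and an exon pair of 1.80 and 1.84. SUZ12 had a peak in exon 1 of 3.27 in GM and 4.15 in DM (ratio 1.27) over the same 90 bases, and a 3′ UTR peak of 2.16 in the DM list alone.

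Over whole genes, 7 of the 9 members with peaks had more exon bases under peaks in DM than in GM (72.6% of the 9840 genes with peaks in both lists). The ratio of DM to GM bases was 5.31 in SUZ12, 1.80 in DNMT3A and 1.52 in EZH1, with a median of 1.21 over those 9840 genes, and it was 0.956 in EZH2 and 0.757 in UHRF1. For SUZ12 the ratio set 478 DM bases against 90 GM bases, since GM had only the exon 1 peak. The highest fold enrichment of a gene was greater in DM in 8 of 9 members (59.2% of those genes), with EZH2 as the exception. Of the 5 members called in mRNA, UHRF1, TET1 and DNMT1 fell and EZH1 rose with a higher maximum in DM, and EZH2 fell with a lower one.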

How the data were processed

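The members and gene lists were chosen with earlier results of these data known. The authors aligned trimmed reads to ARS-UCD1.2 with HISAT2 and computed the deposited FPKM of the 6 input libraries with StringTie (the study's methods name Trimmomatic for trimming, the submitters' processing notes cutadapt and fastp); libraries were strand-specific, but whether counting used strand is not given in the sources used here. The table covers 29 autosomes. The deposited peak lists, 1 per group, give for each exomePeak peak the authors' fold enrichment (a ratio of IP over input), score (a p-value) and log10 of the false discovery rate, with annotation by ChIPseeker. All peaks were kept; 2 member peaks in each list had a false discovery rate of 0.05 or more.

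The fit used limma 3.58.1 (R 4.3.3) with a variance trend on log2(FPKM + 1). It kept the 12302 genes whose mean reached 0.5 FPKM and adjusted p-values over them by Benjamini-Hochberg. Ratios were compared by two-sided exact permutation of log2 values. Peaks were joined with pandas 2.3.3 and numpy 2.4.6 under Python 3.11.15, permutations used scipy 1.17.1 and figures matplotlib 3.10.9. Named genes are the members, other PRC2 core subunits and H3K27 demethylases, up to 4 called genes of each other pathway list with the largest changes, and the 3 nearest in pattern to the 3 most changed members. In simulated data with independent normal noise 184 of 200 changed genes among 12302 were recovered and 11 unchanged genes were called. The real comparison called 5268 genes, so these rates need not hold for it. Alternatives covered the pseudocount, filter, scaling, variance trend, thresholds, replicate block, each library left out, and peak rules. Peaks called per sample, edgeR results and sequences were not used here.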

Additional observations from a re-analysis of the deposited data

How the results depend on the processing

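The calls of DNMT1, UHRF1, TET1, EZH2 and EZH1 stood in all 14 alternatives of the expression fit, and TET2, TET3 and DNMT3A were called in none. SUZ12 was called in 1, without GM replicate 3. The log2 fold change of DNMT3A turned to 0.0325 on TPM. Counting genes by unadjusted p and fold gave 1461 over 1.5-fold and 507 over 2-fold, with 3 and 1 members among those lower. Pathway genes called higher numbered 6, with 15 on TPM and 10 with size factors; both scalings raised the median of all tested genes. The log2 ratio of TET3 over TET2, −0.06 with all libraries, ran from −0.216 to 0.0185 as single libraries were left out, and was above 0 without GM replicate 1 (0.0185) or GM replicate 3 (0.0110). With weak peaks under a fold enrichment of 2 left out, pairs over 1.5 times higher in DM numbered 2 in place of 1. The added pair was in DNMT3A, where the GM peak of 1.91 dropped out and left 2.43 in GM against 5.32 in DM. After centring on the median of all pairs (0.07), 1 pair was over 1.5 times lower in place of 0. That was the UHRF1 exon pair, whose log2 ratio was −0.55 before centring.

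Whether same-numbered GM and DM cultures were paired is not given in the sources used here. Deviations of same-numbered libraries from their group mean correlated at −0.079, −0.123 and −0.208. Those of differently numbered libraries correlated at −0.0594 to 0.187. Deviations within a group are tied to each other, so these values cannot show whether cultures were paired. A replicate block gave 4513 called genes in place of 5268, with the same 4 members lower and 1 higher; beside the calls named in the report, the block also removed those of TDG and MBD3. With 1 library left out the count ran from 4139 to 5428. Read totals are not in the files, which limits what can be said of genes near the filter such as DNMT3B and TET3.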

Other observations

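In a list drawn up for readers of methylated CpG sites 6 genes were tested. MBD3, a subunit of the NuRD remodelling complex, was the 1 gene called, lower in DM, and 5 were not (16.7% of the list, against 26.7% of all tested genes). Whether MBD3 itself reads the methylated site was not tested. It had 25.2 ± 1.99 FPKM in GM and 21.8 ± 0.645 in DM (SD, n = 3 each, log2 change −0.20, limma Benjamini-Hochberg adjusted p = 0.0383), and the call stood in 4 of 14 alternatives. On TPM 0 genes of this list were called lower and 2 higher. The list's median log2 fold change was 0.01.

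Among 9 tested genes of H3 lysine 9 methylation, the other large repressive histone mark, 3 were called lower in DM (33.3%, near the 26.7% of all tested genes), 0 higher and 6 were not called. On TPM and with size factors 2 were called lower. TRIM28, a corepressor that brings H3 lysine 9 methyltransferase to chromatin, went from 41.5 ± 1.76 to 30.3 ± 1.69 FPKM (log2 change −0.44, limma Benjamini-Hochberg adjusted p = 0.000550). CBX5, a heterochromatin protein that binds the mark, went from 49.4 ± 4.92 to 36.0 ± 2.14 FPKM (−0.44, limma Benjamini-Hochberg adjusted p = 0.00245). Both calls stood in 14 of 14 alternatives. Its relative CBX1 was called lower too (−0.23, limma Benjamini-Hochberg adjusted p = 0.0228), in 9 of 14 alternatives. Without GM replicate 3 the count of called genes in this list was 5.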
